A study of Mus musculus with 6 samples.

Results

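Transcripts of 10 glycolysis genes, Slc2a1, Hk1, Hk2, Pfkl, Aldoa, Gapdh, Pgk1, Eno1, Pkm and Ldha, were followed across the cell types of c-Kit-enriched mouse bone marrow. The genes were matched by symbol, and they were chosen with earlier results of these data known. The 10 symbols matched 11 of the 32285 gene rows of the deposited matrices, because Aldoa has a second row (ENSMUSG00000114515), which held 2 UMIs and was not tested. Single-cell RNA was profiled in 9 BALB/c mice that were 10 weeks old at harvest and, per the study's methods, female. The mice were non-tumor-bearing (NTB), 4T1-bearing and given vehicle, or 4T1-bearing and given brequinar (BRQ), with 3 mice per group. 4T1 is a mammary carcinoma cell line that grows in BALB/c mice and was placed in the mammary gland, and BRQ inhibits dihydroorotate dehydrogenase, an enzyme of pyrimidine synthesis. Each of 3 pools held 1 mouse of every group, told apart by a hashtag antibody. In all mice, marrow cells were enriched for c-Kit with magnetic beads before capture, so the cell types below are those that the beads retained.

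Glycolysis breaks glucose down to pyruvate and yields ATP, reducing power and precursors for nucleotides and serine without using oxygen. Immature blood cells of the marrow and neutrophils draw on it heavily, and many of its genes are targets of the hypoxia factor HIF-1 and of Myc. Slc2a1 encodes the glucose transporter GLUT1. Hk1 and Hk2 encode hexokinases, which trap glucose in the cell as glucose 6-phosphate, and Pfkl encodes the liver-type subunit of phosphofructokinase, the committed step. Aldoa encodes aldolase A, which splits the hexose. Gapdh and Pgk1 encode enzymes of later steps that yield NADH and ATP, and Eno1 encodes the enzyme of a step after these. Pkm encodes the muscle-type pyruvate kinase, which makes pyruvate, and Ldha encodes the lactate dehydrogenase subunit that favors its reduction to lactate.

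Promoter sequence is shown for Ldha, Pgk1, Gapdh and Eno1, the 4 members called between groups of GMPs by edgeR without a block and with TMM scaling, the main test below. In the GENCODE annotation of GRCm38 these genes lie at chr7:46841475-46855627 (Ldha, plus strand), chrX:106187100-106203699 (Pgk1, plus), chr6:125161715-125166467 (Gapdh, minus) and chr4:150236721-150248879 (Eno1, plus). Each run is the 250 bases before a transcription start in the RefSeq table of build GRCm38.p6, printed on the strand of the gene. Capitals mark the letters ACGTG or GCGTG on either strand, the core to which HIF-1 binds, and CACGTG, which carries ACGTG on both strands, was counted as 2 overlapping matches. The Ldha window is chr7:46845554-46845803 on the plus strand, with 5 matches, and the other Ldha window of the table, not printed, has 1. The Pgk1 window is chrX:106186850-106187099 on the plus strand, with 2 matches. The Gapdh window is chr6:125165774-125166023 on the minus strand, with 2 matches, and the Eno1 window is chr4:150236458-150236707 on the plus strand, with 1 match, and the other 2 Eno1 windows overlap exons and are not printed. None of the printed windows overlaps an annotated exon of its gene, although those of Ldha and Gapdh lie within the annotated gene because it has earlier starts.
Ldha: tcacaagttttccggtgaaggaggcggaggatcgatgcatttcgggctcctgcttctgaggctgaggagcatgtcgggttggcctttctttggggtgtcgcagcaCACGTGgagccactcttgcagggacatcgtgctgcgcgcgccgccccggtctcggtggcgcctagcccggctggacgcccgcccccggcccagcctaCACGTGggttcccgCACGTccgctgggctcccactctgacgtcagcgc
Pgk1: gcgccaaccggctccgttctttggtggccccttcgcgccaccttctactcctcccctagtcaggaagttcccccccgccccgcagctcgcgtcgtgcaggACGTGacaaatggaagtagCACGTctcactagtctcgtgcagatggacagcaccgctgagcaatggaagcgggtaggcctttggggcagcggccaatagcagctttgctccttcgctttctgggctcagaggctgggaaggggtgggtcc
Gapdh: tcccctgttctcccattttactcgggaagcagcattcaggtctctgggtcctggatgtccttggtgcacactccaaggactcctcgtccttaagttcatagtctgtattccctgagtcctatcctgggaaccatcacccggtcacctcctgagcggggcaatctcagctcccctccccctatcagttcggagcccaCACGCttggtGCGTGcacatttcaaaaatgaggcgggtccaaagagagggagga
Eno1: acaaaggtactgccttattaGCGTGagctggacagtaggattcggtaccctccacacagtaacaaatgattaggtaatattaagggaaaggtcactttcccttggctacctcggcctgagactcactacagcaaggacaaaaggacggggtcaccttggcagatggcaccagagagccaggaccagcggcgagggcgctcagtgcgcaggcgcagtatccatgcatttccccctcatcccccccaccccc

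All 10 members had an entry in this table, with 17 windows in all, and 14 of the 17 (82.35%) held at least 1 match. Windows of a gene can overlap and share matches, as for Eno1 and Aldoa, so the 17 are not all separate promoters. Among all 32851 windows of the table, 12679 (38.6%) held at least 1 match, 16.73% held at least 2 and 1.011% held at least 5, as the Ldha window did. A match is a run of letters and not a measured binding site, and no binding was measured here.

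The 3 pools gave 13750, 11441 and 14297 barcodes with 128035770, 100700982 and 135564079 gene UMIs, and 127 barcode sequences occurred in more than 1 pool. After filters, 15966 cells carried a single hashtag, 382 to 2780 per mouse. Of these, 14182 fell into a class, and 3916 were granulocyte-monocyte progenitors (GMPs) by the study's marker Ms4a3. Each mouse gave 88 to 1017 GMPs, numbering 88, 135 and 177 among NTB mice, 1017, 95 and 289 with vehicle and 806, 656 and 653 under BRQ in pools 1, 2 and 3. Other classes were named from marker genes of their clusters and are called "-like". GMPs held all 6 GMP markers, Ms4a3 itself, Mpo, Elane and Prtn3 among them, and their summed level of 31620 to 42620 CPM, counts scaled to a common library size, set them apart from the neutrophil-like cells with 3314 to 9754 CPM. Levels below are UMIs summed over the cells of a class in 1 mouse and are given per 10000 UMIs or as CPM scaled by TMM factors, which set the typical gene equal between mice. In GMPs the factors were 0.921 to 1.01 in NTB mice, 0.927 to 0.973 in vehicle mice and 1.05 to 1.15 in BRQ mice, so that values with BRQ depend on this choice, and fits on total UMIs in place of TMM are given beside them. Mice within a group are named by their pool, and 3 values are always in the order of pools 1, 2 and 3.

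The 10 genes were not used to define clusters, and the levels of most of them differed between cell types. Transcripts of Eno1, Aldoa, Hk2 and Gapdh were higher in GMPs than in HSC/MPP-like cells, the stem and multipotent progenitor compartment, whereas those of Slc2a1, Hk1 and Pfkl were lower. In 8 mice with both classes, Eno1 was at 2.75 UMIs per 10000 in GMPs and 0.748 in HSC/MPP-like cells, a mean log2 difference of 1.91 (SD 0.34). Aldoa was higher in GMPs by 1.31 (SD 0.12), Hk2 by 0.94 (SD 0.40) and Gapdh by 0.52 (SD 0.14), each in 8 of 8 mice. In the opposite direction, Pfkl was at 0.203 in GMPs and 0.71 in HSC/MPP-like cells, a log2 difference of -1.79 (SD 0.35), and the difference of Hk1 was -0.86 (SD 0.31), each lower in all 8 mice. These 6 genes had a p of 0.00781, the smallest that the two-sided exact permutation test of 8 pairs can give, and an adjusted p of 0.0174 over 40 tests. Slc2a1 was lower in GMPs in 7 of the 8 mice, with a log2 difference of -0.93 (SD 0.73, adjusted p = 0.0312 in the exact permutation test), and it did not pass without NTB 3, vehicle 1 or BRQ 1, 2 or 3. For Pgk1, Pkm and Ldha the differences of 0.07, 0.11 and 0.13 did not pass, with SDs of 0.19, 0.19 and 0.20.

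Neutrophil-like cells carried more Slc2a1, Pkm and Hk2 than GMPs and less Eno1, Ldha and Pfkl. Slc2a1 was at 0.256 UMIs per 10000 in neutrophil-like cells and 0.0504 in GMPs, a log2 difference of 1.57 with an SD over 9 mice of 1.26, and Pkm was at 6.09 and 3.73. In NTB mice, Slc2a1 was at 0.021, 0.073 and 0.050 in neutrophil-like cells and at 0.010, 0.067 and 0.034 in GMPs. In vehicle mice it was at 0.212 to 0.669 against 0.04815 to 0.0535, and in BRQ mice at 0.0899 to 0.4785 against 0.05148 to 0.07984. Slc2a1, Pkm and Hk2 were higher in 9 of 9 mice, and Eno1 and Ldha were lower in all 9, with log2 differences of -0.62 (SD 0.26) and -0.47 (SD 0.21). These 5 had an adjusted p of 0.0156 in the exact permutation test, and Pfkl, lower in 7 of 9 mice with a difference of -0.43 (SD 0.46), had 0.0417 and did not pass without NTB 1, 2 or 3, vehicle 1 or BRQ 1, 2 or 3. The differences of Hk1, Aldoa, Gapdh and Pgk1 did not pass. Monocyte-like cells (cells with markers of monocytes and of monocyte and dendritic cell precursors) carried more Pfkl than GMPs, by a log2 difference of 0.83 (SD 0.21), and smaller excesses of Gapdh, Pgk1, Pkm and Ldha, between 0.21 and 0.27. They carried less Eno1, with a difference of -0.85 (SD 0.17), and less Aldoa, with -0.18 (SD 0.08), in 9 of 9 mice. Those 7 had adjusted p values of 0.0156 or 0.0174 and Slc2a1, with a log2 difference of 0.52 (SD 0.45), had 0.0312 in the exact permutation test and did not pass without NTB 2 or 3, vehicle 1 or BRQ 1 or 2.

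Erythroid-like cells stood out by a low level of Pkm. The level of Pklr, the other pyruvate kinase gene, was not compared, so the pyruvate kinase step as a whole is not described. In the 6 mice with enough of these cells, Pkm was at 0.93 UMIs per 10000 and 3.4 in HSC/MPP-like cells, a log2 difference of -2.02 (SD 0.67) that was negative in all 6. Hk1, Aldoa, Eno1 and Ldha were higher in erythroid-like cells in 6 of 6 mice, with Hk1 at 1.49 against 0.923. Gapdh, Pgk1, Pfkl and Slc2a1 were lower in all 6, and Hk2, at a difference of -1.12 (SD 0.85), did not pass (adjusted p = 0.0806, exact permutation test). Each of these 9 tests gave a p of 0.0312, the smallest that the exact permutation test of 6 pairs can give, and an adjusted p of 0.0417. With any 1 of these 6 mice left out, 5 pairs remained and the smallest possible p was 0.0625.

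**Figure D1:**
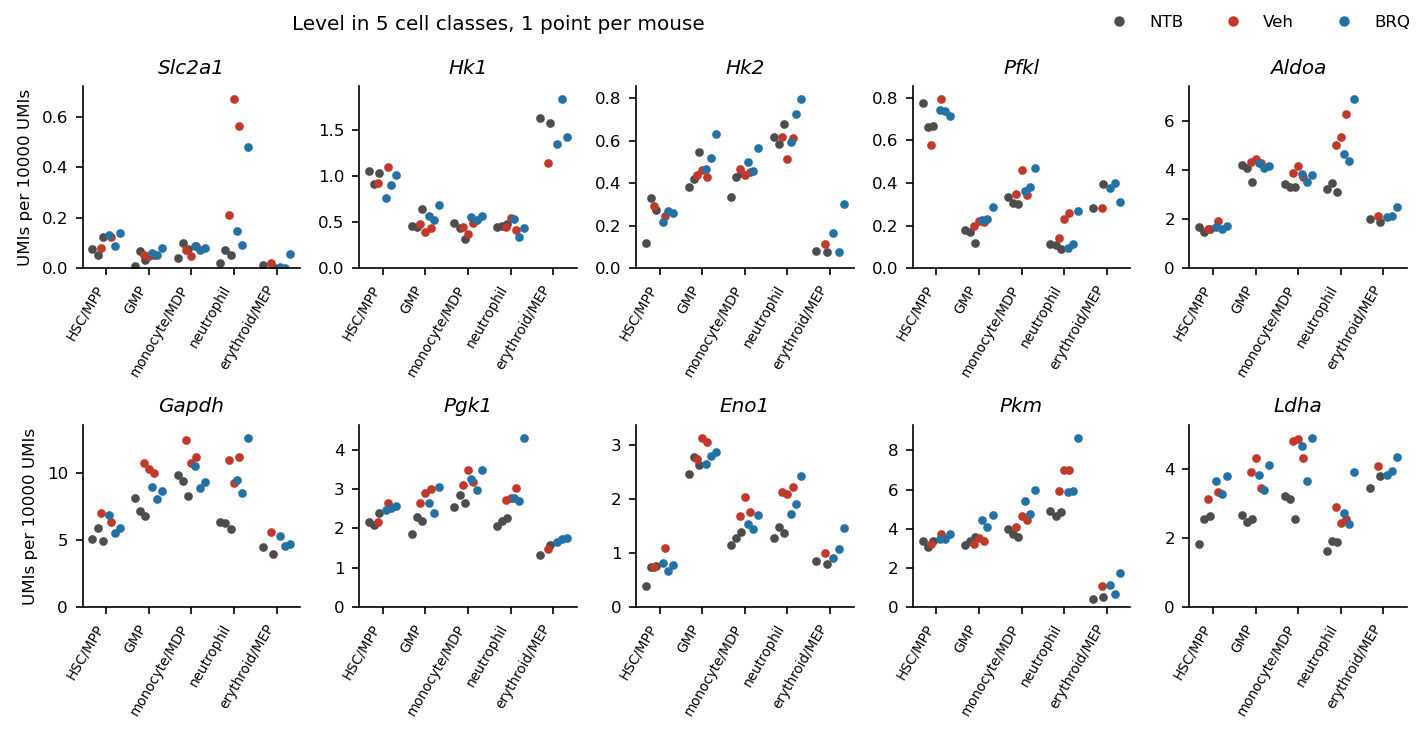
Level of each of the 10 members in 5 cell classes, in UMIs per 10000 UMIs, with 1 point per mouse colored by group and 1 panel per gene with its own axis. Pkm is low in erythroid-like cells (mean 0.93), Eno1 is highest in GMPs (2.79), and the mean of Slc2a1 in neutrophil-like cells (0.256) lies above that of the other classes in tumor-bearing mice and not in NTB mice (0.048).

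Ordered by their mean over mice, the levels of a gene often did not separate neighboring classes. Slc2a1 ran from 0.256 UMIs per 10000 in neutrophil-like cells to 0.0167 in erythroid-like cells, with every neighbor within 1 SD of the paired difference. This rank rested on the tumor-bearing mice, since the 3 NTB mice had a mean Slc2a1 level of 0.048 in neutrophil-like cells, 0.0842 in HSC/MPP-like cells and 0.0721 in monocyte-like cells. Gapdh ran from 10.1 in monocyte-like cells over 8.93 in neutrophil-like cells, 8.75 in GMPs and 8.3 in the GMP-like cells with low Ms4a3, with each of these neighbors within 1 SD of the next but monocyte-like cells above GMPs as given above, to 5.94 in HSC/MPP-like cells, a step beyond 1 SD. For Eno1 the first 4 steps each exceeded 1 SD, from GMPs (2.79) over GMP-like cells with low Ms4a3 (2.44), neutrophil-like (1.84) and monocyte-like cells (1.55) to the basophil- and eosinophil-like cells (1.25). The highest levels of Aldoa (5.37), Pgk1 (4.87) and Hk2 (0.795) were in those basophil- and eosinophil-like cells, which only 3 mice held in sufficient number. For Aldoa, the paired log2 difference from the next class, neutrophil-like cells, was 0.06 (SD 0.59) and thus within 1 SD. Pkm was highest in neutrophil-like cells (6.09) and exceeded the next class by a log2 difference of 0.42 (SD 0.17). Ldha was highest in monocyte-like cells (4.02), and in the next 5 classes down to HSC/MPP-like cells (3.03) each step was within 1 SD, although classes further apart in this order differed, as monocyte-like cells from GMPs.

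Across the 62 class-by-mouse sums, which share mice and sequencing pools, pairs of members had a median Pearson r of 0.43 for log2(CPM + 1). The closest pairs were Eno1 with Aldoa (0.85) and Pkm with Hk2 (0.84), and the lowest value was that of Hk2 with Hk1 (-0.30), the 2 hexokinases. Among 6076 other genes with a mean of at least 20 CPM, those whose levels ran most like the mean of the members were Tspo (0.84), Rab27a (0.83), Arpc1b (0.82), Tctex1d2 (0.82) and Ifitm2 (0.81).

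In GMPs of vehicle-treated 4T1-bearing mice, the transcripts of Ldha, Gapdh and Pgk1 rose. These enzymes make lactate, NADH and ATP, and no member fell. In these cells (Veh-GMPs) Ldha was 1.54-fold, Gapdh 1.42-fold and Pgk1 1.35-fold the level of NTB-GMPs. The test was edgeR's quasi-likelihood test over 10331 genes with Benjamini-Hochberg adjustment, of which 11.3% were called at an adjusted p under 0.05. Of the 10 members 3 were called.

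Ldha was at 290, 254 and 256 CPM in NTB-GMPs, 424, 450 and 357 CPM in Veh-GMPs and 366, 322 and 359 CPM in BRQ-GMPs. Every NTB mouse lay below every tumor-bearing mouse, whereas the vehicle and BRQ mice overlapped. The log2 difference of vehicle against NTB was 0.62 (SE 0.10, adjusted p = 0.000272), and that of BRQ against vehicle was -0.23 (SE 0.09, adjusted p = 0.107). Ldha was the single member called between BRQ and NTB, by 0.40 (SE 0.10, adjusted p = 0.0157), where 6.01% of genes were called. The call was lost without NTB 2, NTB 3 or BRQ 1 (adjusted p up to 0.108).

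Gapdh was at 886, 736.5 and 678 CPM in NTB-GMPs, 1161, 1072 and 1028 CPM in Veh-GMPs and 855, 760 and 751 CPM in BRQ-GMPs. The vehicle mice lay above all other mice, and the NTB and BRQ mice overlapped. Gapdh was higher in vehicle than in NTB mice by a log2 difference of 0.51 (SE 0.10, adjusted p = 0.00183) and lower in BRQ than in vehicle mice, with a difference of -0.46 (SE 0.10, adjusted p = 0.00247), and of -0.27 (adjusted p = 0.0145) on total UMIs. Pgk1 was at 203, 237 and 217 CPM in NTB-GMPs, 286, 301.5 and 308 CPM in Veh-GMPs and 252, 226 and 266 CPM in BRQ-GMPs. In TMM-scaled CPM all vehicle mice exceeded all others, and the BRQ mice overlapped with the NTB mice. Per 10000 UMIs Pgk1 was at 2.65, 2.9 and 2.99 in Veh-GMPs and 2.64, 2.39 and 3.06 in BRQ-GMPs, which overlapped, and at 1.86 to 2.3 in NTB-GMPs, below both. The log2 difference of vehicle against NTB was 0.44 (SE 0.09, adjusted p = 0.0031) and that of BRQ against vehicle -0.26 (SE 0.08, adjusted p = 0.0378), which on total UMIs was -0.07 (adjusted p = 0.609). The 3 calls of vehicle against NTB held on total UMIs (Ldha 0.60, Gapdh 0.49, Pgk1 0.41), and they and the fall of Gapdh with BRQ held when each of the 9 mice was left out in turn. The call of Pgk1 with BRQ was lost without vehicle 1, 2 or 3 or BRQ 1 or 2 (adjusted p up to 0.171).

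**Figure D2:**
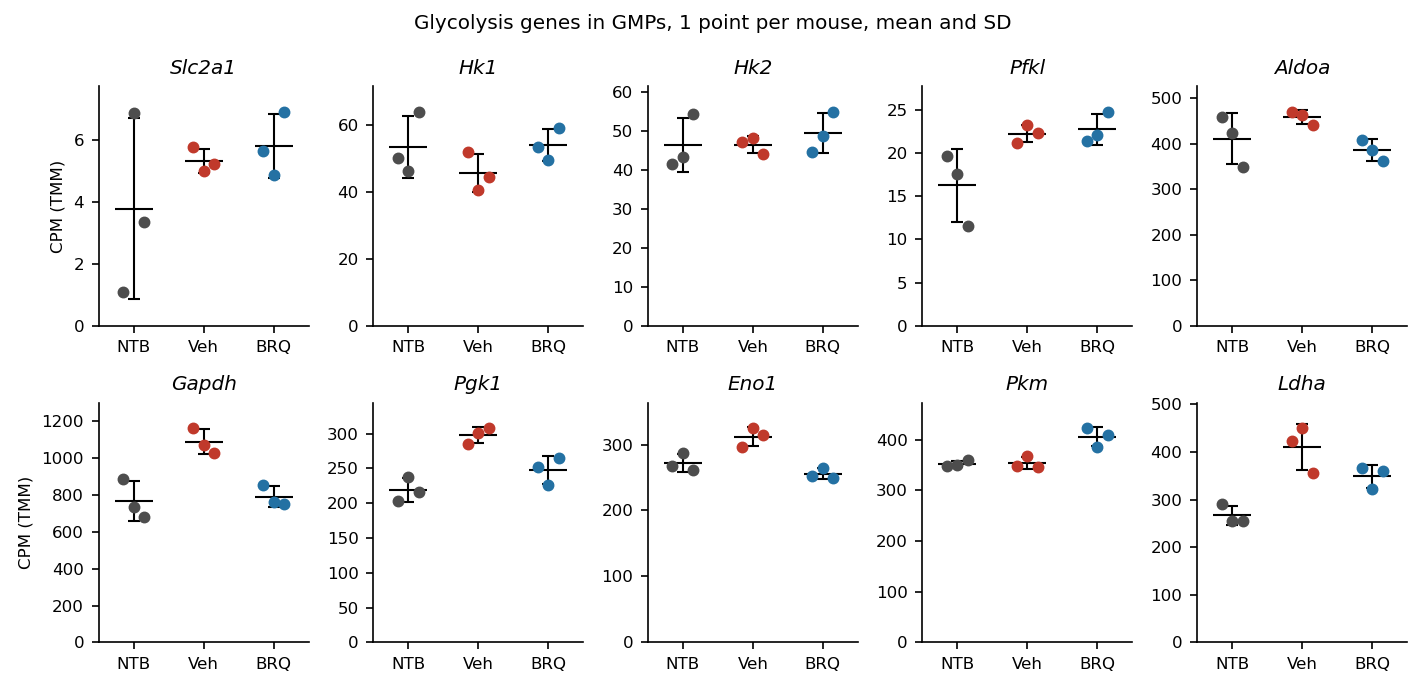
TMM-scaled CPM of the 10 members in GMPs, 1 point per mouse (9 mice, 3 per group) with lines at the group mean and SD, 1 panel per gene with its own axis. Veh-GMPs lie above both other groups for Gapdh (1028 to 1161 CPM), Pgk1 (286 to 308 CPM) and Eno1 (296 to 325 CPM), and BRQ-GMPs lie above both for Pkm (385 to 423 CPM), whereas per 10000 UMIs vehicle and BRQ mice overlap for Pgk1 and Eno1.

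Eno1 was lower with TMM scaling in BRQ-GMPs, at 253, 265 and 249 CPM, than in Veh-GMPs, at 296, 325 and 315 CPM. These groups did not overlap on this scale, but per 10000 UMIs, with 2.65, 2.8 and 2.87 against 2.74, 3.12 and 3.06, they did, and the NTB mice, at 267, 287 and 261 CPM, lay below the vehicle mice and overlapped with the BRQ mice. The log2 difference of BRQ against vehicle was -0.28 (SE 0.08, adjusted p = 0.0177) and was not called without vehicle 2, vehicle 3 or BRQ 1 (adjusted p up to 0.0769). On total UMIs it was -0.09 (adjusted p = 0.426). With the pool as a block, Eno1 was also higher in vehicle than in NTB mice, by 0.20 (adjusted p = 0.0466, against 0.146 without the block). In all, 3 of 10 members were lower with BRQ and none was higher, where 13.4% of all genes were called. With the pool as a block 6 members and 20.4% of genes were called, because Aldoa (-0.25, adjusted p = 0.00388) and Ldha (-0.22, adjusted p = 0.0206) were lower and Pkm (0.20, adjusted p = 0.0183) was higher.

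With TMM scaling, edgeR called Aldoa and Pkm with the block and not without it, in opposite directions. Aldoa was at 459, 423.5 and 349 CPM in NTB-GMPs, 470, 464 and 440.5 CPM in Veh-GMPs and 409, 387 and 362 CPM in BRQ-GMPs, so that all BRQ mice lay below all vehicle mice on this scale, whereas per 10000 UMIs BRQ 1 (4.279) and vehicle 3 (4.278) met. Pkm was at 348, 351 and 359 CPM in NTB-GMPs, 347, 368.5 and 347 CPM in Veh-GMPs and 423, 385 and 408.5 CPM in BRQ-GMPs, and all BRQ mice lay above all others. Without the block neither passed, with an adjusted p of 0.0755 for Aldoa and of 0.1 for Pkm, which DESeq2 called at 0.0464. On total UMIs with the block, Aldoa was at -0.06 (adjusted p = 0.507) and Pkm at 0.39 (adjusted p = 1.65e-05).

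The direction of calls with BRQ in GMPs thus rested on the scaling. On total UMIs the median log2 difference of all genes between BRQ and vehicle moved from 0.00 to 0.20, and of the genes called, 88.45% were higher in BRQ mice in place of 45.21% with TMM. Of the members Gapdh was then lower and Pkm (0.39, adjusted p = 0.00144) and Hk1 (0.40, adjusted p = 0.0236) were higher, where 21.7% of genes were called. Relative to the median gene, Pgk1 and Eno1 lay lower and Pkm and Hk1 higher with BRQ. A change of scaling shifts all genes nearly alike, so this order holds in both scalings by construction and is no check of the calls. Against NTB the median moved to 0.16 and the share of calls higher in BRQ mice from 42.51% to 83.55%, and Ldha (0.57), Pfkl (0.73), Pkm (0.37) and Pgk1 (0.34) were higher, where 12.8% of genes were called. Between vehicle and NTB the median was -0.05 on total UMIs, 9.72% of genes were called, and the 3 members called were the same.

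Among the early steps, Pfkl was at 19.6, 17.6 and 11.6 CPM in NTB-GMPs and at 21.2 to 23.2 CPM in Veh-GMPs and 21.4 to 24.8 CPM in BRQ-GMPs. The NTB mice lay below the others, and the log2 differences from NTB were 0.51 in vehicle mice (adjusted p = 0.0854) and 0.57 in BRQ mice (adjusted p = 0.0614, and 0.0294 with the pool as a block). Hk1 ranged from 40.7 to 64 CPM and Hk2 from 41.4 to 55 CPM over the 9 mice, with all groups overlapping in TMM-scaled CPM. Per 10000 UMIs all BRQ mice exceeded all vehicle mice for both, with Hk1 at 0.524 to 0.682 against 0.391 to 0.481 and Hk2 at 0.467 to 0.633 against 0.428 to 0.463. Slc2a1 was at 1.09 to 6.93 CPM, and its log2 difference of vehicle against NTB, 0.42 (SE 0.39, adjusted p = 0.545), was not called. Without a threshold on p, 5 members had higher values in every vehicle mouse than in every NTB mouse, as did 28.4% of all genes in 1 direction or the other. Between BRQ and vehicle 4 members were lower and 1 higher without overlap (30.7% of genes in either direction), and on total UMIs 1 was lower and 4 higher (38.4%). From NTB to BRQ mice 3 were higher (25.9%), and 4 on total UMIs (32.0%).

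GMPs of the groups also differed in depth and in makeup, and values within narrower sets of GMPs are given beside the calls. The median UMIs per GMP were 10828.5 to 11581 in NTB mice, 14737 to 17966 in vehicle mice and 12168.5 to 15795 in BRQ mice. The summed level of 14 neutrophil markers in GMPs was 47540 to 51000 CPM in NTB mice, 34290 to 38050 CPM in vehicle mice and 27170 to 38520 CPM in BRQ mice. That of 10 HSC/MPP markers was 48.8 to 51.7, 51.2 to 51.7 and 77.9 to 96.5 CPM, and that of 12 monocyte markers was 60.1 to 73, 56.6 to 70.1 and 101 to 153.5 CPM. For 10 macrophage markers the ranges were 376 to 399, 242 to 251 and 174 to 300 CPM, and for 12 basophil, mast cell and eosinophil markers, with Cma1 at 0, they were 121 to 179, 86.1 to 112.5 and 183 to 200 CPM. Those of 14 lymphoid progenitor and B cell markers, with Ms4a1 at 0, separated all 3 groups, at 55.1 to 69.9, 32.5 to 36.2 and 39.8 to 52.6 CPM, and 10 stromal and endothelial markers were at 2 to 5.47, 3.61 to 5.66 and 7.44 to 12 CPM. Cluster 2 held 26.2%, 23.9% and 65.5% of GMPs in the 3 BRQ mice, above the 3.41% to 12.5% in the other 6 mice. Mitochondrial UMIs made up 3.61% to 3.71% in NTB mice, 3.27% to 3.31% in vehicle mice and 3.17% to 3.58% in BRQ mice, and the part of this share in the calls was not tested.

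Within cluster 0 alone, which held GMPs of all 9 mice, Ldha (0.53, SE 0.11), Gapdh (0.50, SE 0.10) and Pgk1 (0.45, SE 0.11) were higher in vehicle than in NTB mice, with 8.53% of genes called. Gapdh was lower in BRQ than in vehicle mice in cluster 0, with a difference of -0.39 (SE 0.10, adjusted p = 0.0079), where 9.27% were called. For BRQ against NTB, edgeR called 0 members in cluster 0 and 2.70% of genes, and 2 members had an unadjusted p under 0.05. Within cluster 1, which was left unnamed and held enough GMPs of 7 mice, Gapdh (0.63) and Ldha (0.60) were higher in vehicle than in NTB mice (1.65% of genes called) and Gapdh was lower with BRQ than with vehicle at a difference of -0.52 (4.88% called). Between BRQ and NTB, edgeR called 0 members in cluster 1 and 0.916% of genes, and 1 member had an unadjusted p under 0.05. Among GMPs of 8000 to 16000 UMIs, Ldha was higher in vehicle than in NTB mice by 0.51 (5.20% of genes called), Gapdh was lower with BRQ than with vehicle at -0.39 (8.84% called), and no other member was called. Between vehicle and NTB mice, Gapdh was there at 0.38 (SE 0.12, adjusted p = 0.0698) and Pgk1 at 0.25 (SE 0.11, adjusted p = 0.223). Between BRQ and vehicle mice, Eno1 was at -0.28 (SE 0.10, adjusted p = 0.0667) in that range and at -0.13 in cluster 0 and -0.02 in cluster 1, and Pgk1 was at -0.12 (SE 0.10, adjusted p = 0.555) in that range and at -0.22 and -0.28 in the 2 clusters.

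In cells of the GMP clusters whose Ms4a3 lay under the limit, Ldha was also higher in both tumor-bearing groups than in NTB mice. Ldha was at 273, 257 and 259 CPM in NTB mice, 474, 503 and 459 CPM in vehicle mice and 437.5, 373 and 455 CPM in BRQ mice. All tumor-bearing mice exceeded all NTB mice. The median UMIs per cell were 9945 to 11113 in NTB mice, 13616.5 to 16888 in vehicle mice and 12040.5 to 15412 in BRQ mice, and mitochondrial UMIs made up 4.37% to 4.49%, 3.2% to 4.03% and 3.5% to 4.11%, whose part in the differences was not tested. The log2 differences from NTB were 0.86 with vehicle (SE 0.09, adjusted p = 1.22e-06) and 0.69 with BRQ (SE 0.09, adjusted p = 3.64e-05), and both were called without each mouse in turn. Pgk1 (0.41) and Gapdh (0.43, not called without NTB 3) were also higher in vehicle than in NTB mice, so that 3 of 10 members were called where 15.4% of genes were, and 5 with the pool as a block, which added Aldoa (0.22, adjusted p = 0.0272) and Eno1 (0.24, adjusted p = 0.0317). By edgeR and by DESeq2, 0 of the 10 were called between BRQ and vehicle, where edgeR called 6.18% of genes and 4 members had an unadjusted p under 0.05. With the block Gapdh (-0.30), Eno1 (-0.28) and Aldoa (-0.23) were lower. The 15.4% and 6.18% are shares of genes in the fits without the block and are no background for the calls with it. Between BRQ and NTB, Pfkl (0.57, not called without NTB 2) and Pkm (0.32, not called without NTB 2, NTB 3, BRQ 1 or BRQ 3) were higher beside Ldha, where 9.38% of genes were called, and Pgk1 (0.29, adjusted p = 0.00616) was added with the block. On total UMIs the medians of all genes were 0.15 between BRQ and vehicle and 0.17 between BRQ and NTB, with 85.9% and 86.43% of calls higher in BRQ mice in place of 40.48% and 47.28%. Pkm (0.33) was then called higher in BRQ than in vehicle mice (10.0% of genes called), Gapdh, Hk1 and Pgk1 were added to the 3 between BRQ and NTB (19.7% called), and Aldoa was added to those between vehicle and NTB (14.8% called).

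In HSC/MPP-like cells, Ldha was the one member called. Vehicle 2 held 9 of these cells and was left out. Ldha was at 189, 262 and 261 CPM in NTB mice, 322 and 336 CPM in vehicle mice 1 and 3 and 375, 325 and 372 CPM in BRQ mice, with NTB mice below the others. It was higher in BRQ than in NTB mice by 0.57 (SE 0.11, adjusted p = 0.00373), where 0.783% of genes were called, and the call was lost without NTB 1. In vehicle against NTB mice 0 of the 10 members were called by edgeR or DESeq2, with 0.994% of genes called by edgeR and 2 members at an unadjusted p under 0.05. Ldha, with a log2 difference of 0.44, had an adjusted p of 0.0967, and of 0.0349 with the pool as a block. In BRQ against vehicle mice 0 members were called by either tool, 0 had an unadjusted p under 0.05, and edgeR called 0.0301% of genes.

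In monocyte-like cells, Ldha and Eno1 rose with the tumor, and Gapdh and Eno1 were lower with BRQ than with vehicle when scaled by TMM. Ldha was at 339, 323 and 257 CPM in NTB mice, 511, 512 and 432 CPM in vehicle mice and 455, 359 and 448.5 CPM in BRQ mice, and NTB mice lay below all others. Eno1 was at 122, 131 and 138 CPM in NTB mice, 178.5, 214 and 176 CPM in vehicle mice and 150, 142 and 155 CPM in BRQ mice, and the 3 groups did not overlap on this scale, although per 10000 UMIs BRQ 3 (1.7) lay above vehicle 1 (1.69). Ldha was higher in vehicle than in NTB mice by 0.68 (SE 0.11, adjusted p = 0.000666) and Eno1 by 0.50 (SE 0.11, adjusted p = 0.0063, lost without NTB 2), where 3.89% of genes were called. With the pool as a block 4 members were called, with Gapdh (0.33, adjusted p = 0.00164) and Pgk1 (0.28, adjusted p = 0.0437) added. The 3.89% is the share of genes in the fit without the block and is no background for these 4. Against vehicle, BRQ mice were lower in Gapdh, with a difference of -0.38 (lost without vehicle 1, BRQ 2 or BRQ 3) and in Eno1, with -0.32 (lost without NTB 2, vehicle 1 or 2, or BRQ 1 or 2), where 5.30% of genes were called. Against NTB, BRQ mice were higher in Ldha by 0.47 (lost without NTB 3 or BRQ 1) and in Pkm by 0.43 (lost without NTB 2 or 3), where 3.38% of genes were called. On total UMIs the median of all genes between BRQ and vehicle was 0.12, 81.71% of calls were higher in BRQ mice in place of 43.82%, and Gapdh (-0.26, adjusted p = 0.0528) and Eno1 (-0.20, adjusted p = 0.221) were not called, whereas Pkm was higher (0.31, 7.28% of genes called). For BRQ against NTB, 75.78% of calls were then higher in place of 48.75%, with the same 2 members called. The median UMIs per monocyte-like cell were 13669.5 to 16899 in NTB mice, 20354 to 23871 in vehicle mice and 15196 to 18698 in BRQ mice, and their part was not tested.

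**Figure D3:**
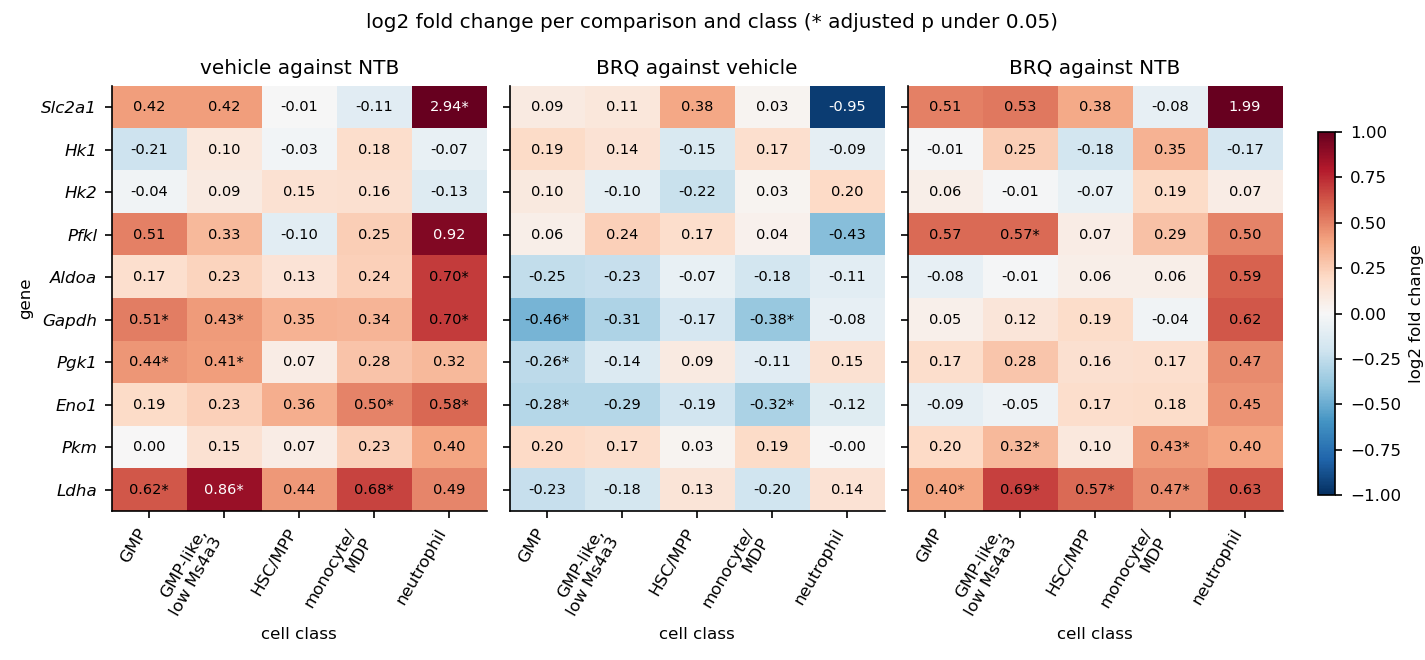
Log2 fold changes of the 10 members in the 5 cell classes tested, with TMM scaling, 1 panel per contrast, as numbers on a color scale that ends at 1 and -1, with * at an adjusted p under 0.05. Ldha is positive and called for vehicle against NTB in GMPs (0.62), GMP-like cells with low Ms4a3 (0.86) and monocyte-like cells (0.68), and Slc2a1 in neutrophil-like cells (2.94) exceeds all other values.

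Of the 10 members, the glucose transporter Slc2a1 had the largest difference between groups in neutrophil-like cells. Slc2a1 was at 2.28, 7.67 and 5 CPM in NTB mice, 22.1, 64.5 and 55.3 CPM in vehicle mice and 14.9, 9.11 and 44.1 CPM in BRQ mice. NTB mice lay below all tumor-bearing mice, and BRQ and vehicle mice overlapped. The log2 difference of vehicle against NTB was 2.94 (SE 0.60, adjusted p = 0.00739), and it was not called without NTB 3 (adjusted p = 0.0563). Neutrophil-like cells of the groups also differed in depth, with a median of 6213 to 7594 UMIs per cell in NTB mice, 1620 to 2444 in vehicle mice and 2675 to 4423.5 in BRQ mice, and the part of depth in the differences was not tested. Gapdh was at 691, 662 and 580.5 CPM in NTB mice, 1145, 888 and 1094 CPM in vehicle mice and 946, 861 and 1159 CPM in BRQ mice, with NTB mice below the others. Aldoa was at 353, 365 and 309 CPM in NTB mice, 525.5, 519 and 618.5 CPM in vehicle mice and 466, 444 and 636 CPM in BRQ mice. Eno1 was at 138, 156 and 136 CPM in NTB mice, 221, 201 and 217 CPM in vehicle mice and 173, 193 and 223.5 CPM in BRQ mice. For these genes too the NTB mice lay below all tumor-bearing mice.

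With Slc2a1, Gapdh (0.70, SE 0.18, adjusted p = 0.0217), Aldoa (0.70, SE 0.18, adjusted p = 0.023) and Eno1 (0.58, SE 0.16, adjusted p = 0.0297) were higher in vehicle than in NTB mice, and 4 of 10 members were called where 14.0% of genes were. Gapdh, Aldoa and Eno1 each lost their call without NTB 1, NTB 2, NTB 3 or vehicle 3, Aldoa and Eno1 also without vehicle 2, and Eno1 also without BRQ 2. The other 6 members were not called, among them Ldha (0.49, adjusted p = 0.097), Pkm (0.40, adjusted p = 0.133) and Pgk1 (0.32, adjusted p = 0.234), although their NTB mice, too, lay below all others. Without a threshold on p, 8 members were higher in every vehicle mouse than in every NTB mouse, where 36.4% of all genes did not overlap in 1 direction or the other. Between BRQ and NTB 7 were higher without overlap (34.4% of genes), and between BRQ and vehicle none of the 10 separated the groups (11.3% of genes). Pfkl, the phosphofructokinase subunit, was added with the pool as a block (1.07, adjusted p = 0.0394). None of the 10 members was called between BRQ and vehicle by edgeR or by DESeq2, where edgeR called 0.0574% of genes, and 0 had an unadjusted p under 0.05. Between BRQ and NTB 0 members were called by edgeR, where 6.59% of genes were, although 7 had an unadjusted p under 0.05 and DESeq2 called 4. With the pool as a block 6 were higher in BRQ mice, Slc2a1 (2.20, adjusted p = 0.00471), Gapdh (0.61), Ldha (0.61), Aldoa (0.58), Eno1 (0.45) and Pgk1 (0.46), where 15.9% of genes were called. On total UMIs without the block the same 4 members were called between vehicle and NTB, and Gapdh (0.73), Ldha (0.73) and Aldoa (0.70) between BRQ and NTB (6.38% of genes called).

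**Figure D4:**
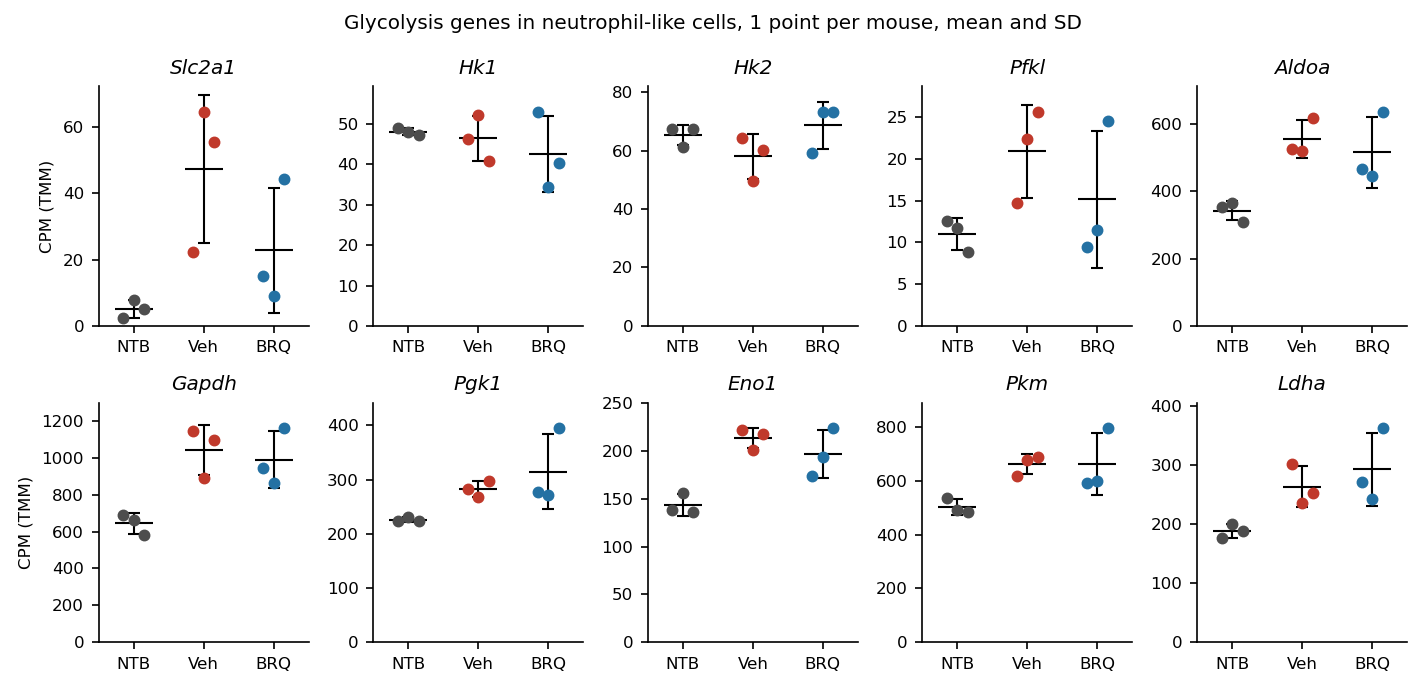
CPM of the 10 members in neutrophil-like cells, 1 point per mouse (9 mice, 3 per group) with lines at the group mean and SD, 1 panel per gene with its own axis. The NTB mice lie below all tumor-bearing mice for Slc2a1 (2.28 to 7.67 CPM), Gapdh (580.5 to 691 CPM), Aldoa (309 to 365 CPM) and Eno1 (136 to 156 CPM).

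The neutrophil-like class held 4 clusters, whose shares differed between the groups. Cluster 8, led by Wfdc17, Il1b, Retnlg and Cxcr2 and with a median of 1662 UMIs per cell, made up 4.92% to 7.74% of the class in NTB mice, 59.3% to 87.8% in vehicle mice and 42% to 76.3% in BRQ mice. Slc2a1 was at 0.865 UMIs per 10000 in cluster 8 (SD 0.36, 8 mice) and at 0.0226, 0.0676 and 0.1 in clusters 5, 6 and 7, which were led by genes of neutrophil granules. Aldoa was at 6.97 in cluster 8 and 3.27 to 4.21 in the others, Gapdh at 12.4 and 6.94 to 9.32, and Pkm at 8.95 and 4.81 to 5.92. The clusters were formed from these cells, so these levels are given as a description.

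**Figure D5:**
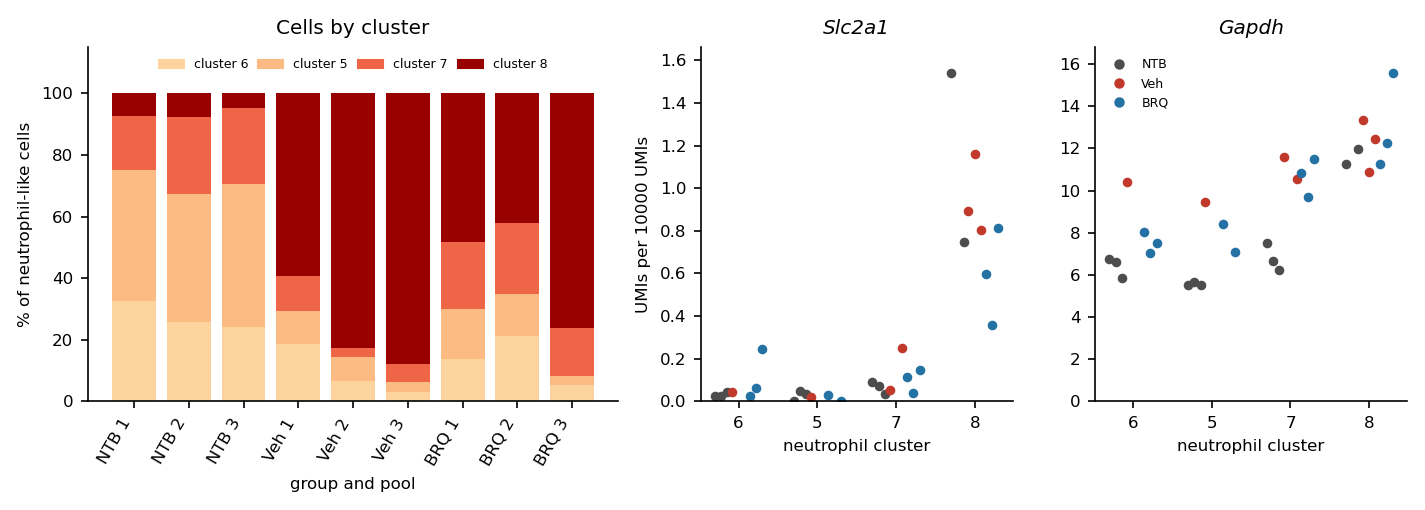
Share of neutrophil-like cells in each of the 4 clusters as stacked bars in percent, 1 bar per mouse, beside the levels of Slc2a1 and Gapdh in each cluster in UMIs per 10000, 1 point per mouse with at least 20 cells. Cluster 8 holds 4.92% to 7.74% of the class in NTB mice and 59.3% to 87.8% in vehicle mice, and its mean Slc2a1 level of 0.865 exceeds those of clusters 5, 6 and 7.

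Within cluster 8, Slc2a1 was at 0.747 and 1.54 UMIs per 10000 in the 2 NTB mice with at least 20 cells and at 0.806 to 1.16 in the 3 vehicle mice, and these ranges overlapped. Its log2 difference of vehicle against NTB there was -0.16 (SE 0.41, adjusted p = 0.944). By edgeR 0 members were called in cluster 8 in each of the 3 contrasts, where 1.25% of genes were called between vehicle and NTB, 4.51% between BRQ and vehicle and 0.0411% between BRQ and NTB, and an unadjusted p under 0.05 was reached by 0, 0 and 1 members. Within cluster 7, of which vehicle 2 held too few cells, Gapdh was higher than in NTB mice by 0.88 in vehicle mice (SE 0.17, adjusted p = 0.000398) and by 0.58 in BRQ mice (SE 0.15, adjusted p = 0.0115). It was the single member of 8 tested that was called, where 1.60% and 4.13% of genes were, and 0 were called between BRQ and vehicle (0.506% of genes), with 0 at an unadjusted p under 0.05. Of the genes on the other lists, Adpgk was lower in vehicle than in NTB mice within cluster 8 (-1.34, adjusted p = 0.00276), and Adpgk (1.43, adjusted p = 3.33e-07), Ndrg1 (0.79, adjusted p = 0.0286) and G6pdx (0.62, adjusted p = 0.0266) were higher there in BRQ than in vehicle mice. Within cluster 7, G6pdx was higher than in NTB mice by 0.78 in vehicle mice (adjusted p = 0.0381) and by 0.86 in BRQ mice (adjusted p = 0.00128). With all neutrophil-like cells but cluster 8, the difference of Slc2a1 between vehicle and NTB was 1.00 (SE 0.54, adjusted p = 0.364), whereas Gapdh (0.65), Eno1 (0.56) and Aldoa (0.47) were called. Ldha (0.51) and Pgk1 (0.42) were called there between BRQ and NTB. The calls without cluster 8 are given without a share of all genes, and no excess of members is read from them.

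Markers of other cell types in the neutrophil-like sums also moved with the groups, and the summed level of the 14 neutrophil markers themselves was 372100 to 376900 CPM in NTB mice, 263800 to 308500 CPM in vehicle mice and 230500 to 304200 CPM in BRQ mice. The summed level of 12 monocyte markers was 22.5 to 43 CPM in NTB mice, 55.4 to 158 CPM in vehicle mice and 45.9 to 132 CPM in BRQ mice. That of 10 macrophage markers was 197 to 222.5, 259 to 511 and 227 to 394 CPM, and that of 12 basophil, mast cell and eosinophil markers was 95.5 to 127, 192 to 435 and 217 to 395 CPM, with Cma1 and Gzmb at 0. For 11 T and NK cell markers, 6 of them at 0, the ranges were 74.5 to 107, 65.3 to 66.9 and 138 to 150 CPM. Their part in the calls was not tested.

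Whether a change differed between cell types was tested directly for neutrophil-like cells and GMPs. The rise of Slc2a1 from NTB to vehicle mice was larger in neutrophil-like cells, by a log2 difference of 2.45 (SE 0.69, adjusted p = 0.0309), the single member of 10 called where 9.45% of genes were. The call was lost without NTB 1, 2 or 3 or vehicle 2 or 3 (adjusted p up to 0.207). Aldoa was called between BRQ and NTB (0.73, SE 0.20, adjusted p = 0.047) where 3.43% of genes were, and lost without NTB 1, 2 or 3, vehicle 2, BRQ 1 or BRQ 3 (adjusted p up to 0.252) and on total UMIs (0.58, adjusted p = 0.0989), where Aldoa was called between vehicle and NTB (0.61, adjusted p = 0.0431). Of the genes called between BRQ and NTB, 94.07% had the higher difference in neutrophil-like cells, and 83.59% on total UMIs. For BRQ against vehicle 0 of 10 members were called by edgeR, where 0.0712% of genes were and 2 members had an unadjusted p under 0.05, so that a difference between these cell types in the change with BRQ was not shown. Of the 7 genes called there, 85.71% had the higher difference in neutrophil-like cells, against 14.29% of 7 on total UMIs.

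Other genes of the pathway moved in both directions in GMPs, and their calls with BRQ, too, depended on the scaling. Of 24 listed isoenzymes, transporters and remaining steps, 13 were tested, and in Veh-GMPs 2 were higher and 2 lower than in NTB-GMPs, 30.77% of the 13 beside 11.3% of all genes. Tpi1, the triose phosphate isomerase, rose by 0.43 (adjusted p = 0.00484) and Slc16a1, the lactate transporter MCT1, by 0.61 (adjusted p = 0.00799). The hexokinase Hk3 fell by 0.78 (adjusted p = 0.000275) and Ldhb, the other lactate dehydrogenase subunit, fell by 0.88 (adjusted p = 0.0415). The median log2 difference was 0.20 over these 13 genes, 0.31 over the 10 members and -0.01 over all genes tested. In BRQ-GMPs against Veh-GMPs Slc16a3, the lactate transporter MCT4, was lower (-0.41) and no other of the 13 was called (7.69% beside 13.4% of all genes). DESeq2 called neither Slc16a3 there nor Ldhb between vehicle and NTB, and the edgeR call of Slc16a3 was lost without vehicle 1, 2 or 3 or BRQ 1 or 3 and on total UMIs, where 3 of the 13, Hk3, Ldhb and Pgam1, were called higher with BRQ. Against NTB-GMPs, BRQ-GMPs were higher in Tpi1 and Pgam1 and lower in Hk3, Adpgk and Ldhc (38.46% beside 6.01%), and on total UMIs 4 of the 13 were higher and 2, Hk3 and Ldhc, lower.

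Of 37 genes that regulate or branch from glycolysis, 33 were tested in GMPs, and 4 rose and 1 fell in Veh-GMPs, 15.15% of the 33 and near the 11.3% of all genes. Psat1 (0.71), Psph (0.54) and Phgdh (0.48), the 3 enzymes that make serine from a glycolytic intermediate, were all higher, Phgdh by edgeR and not by DESeq2, as was Dlat (0.64), a subunit of pyruvate dehydrogenase. Fbp1, the fructose bisphosphatase that opposes phosphofructokinase, fell by 1.09 (adjusted p = 0.00328). In BRQ-GMPs against Veh-GMPs, 1 of the 33 rose and 4 fell, which is 15.15% where 13.4% of all genes were called. Fbp1 was higher by 0.76 (adjusted p = 0.00483), and Psph (-0.67), Pgd (-0.47), Mpc1 (-0.35) and Tkt (-0.26) were lower, of which Pgd and Tkt belong to the pentose phosphate pathway and Mpc1 to the mitochondrial pyruvate carrier. Against NTB-GMPs, 2 rose, Dlat and Psat1, and 4 fell, Pgd, Tkt, Taldo1 and Pfkfb4 (18.18% beside 6.01%). On total UMIs, Psph and Pgd were the 2 called lower and Fbp1, Mpc2 and Rpia the 3 called higher in BRQ-GMPs than in Veh-GMPs, 5 were higher and Pfkfb4 lower than in NTB-GMPs, and between vehicle and NTB Phgdh was not called and Pfkfb4 was lower.

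HIF targets outside glycolysis showed no single direction in GMPs. Of 16 tested, Tfrc, the transferrin receptor, was higher (0.55) and Plin2 (-0.59) and Bnip3l (-0.44) were lower in Veh-GMPs than in NTB-GMPs (18.75% beside 11.3% of all genes). In BRQ-GMPs against Veh-GMPs, Tfrc (-0.63) and Ero1l (-0.26) were lower and Ndrg1 (0.89) and Egln1 (0.41) higher (25% beside 13.4%), and against NTB-GMPs Higd1a was higher and Mxi1 and Vegfa were lower (18.75% beside 6.01%). DESeq2 did not call Ndrg1 or Vegfa in these contrasts, and on total UMIs 6 of the 16 were higher and Tfrc lower with BRQ than with vehicle, and 2 higher and none lower than in NTB-GMPs. Of 20 S phase genes, Rrm2 (0.49) and Nasp (0.37) were higher in Veh-GMPs, and Pcna (-0.36) and Nasp (-0.31) were lower in BRQ-GMPs than in Veh-GMPs, each time 10% of the list and under the share of all genes, whereas on total UMIs 5 of the 20 were higher and none lower in BRQ-GMPs. Of 23 G2/M genes, Ccnb2 (0.28) was called between BRQ and vehicle by edgeR and not by DESeq2, and 0 were called between vehicle and NTB by edgeR or DESeq2, with 3 at an unadjusted p under 0.05. On total UMIs 4 of the 23, Ccnb2, Cenpf, Cks2 and Nusap1, were higher with BRQ than with vehicle and 3 were higher than in NTB-GMPs.

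Over all neutrophil-like cells, genes of glucose and lactate transport were among those higher in vehicle mice. Of 11 other glycolysis genes tested, 4 were higher in vehicle than in NTB mice, the glucose transporters Slc2a6 (4.23, adjusted p = 0.00101) and Slc2a3 (1.22, adjusted p = 0.00818), the lactate transporter Slc16a3 (1.82, adjusted p = 0.00576) and the phosphofructokinase Pfkp (1.34, adjusted p = 0.0403), and Adpgk was lower (-0.83). These are 45.45% of the 11, beside 14.0% of all genes. Of 31 regulators and branches, Pfkfb4 was higher (1.10) and none was lower, 3.23% of that list. HIF targets rose in 4 of 16 (25%) and fell in none, among them Ankrd37 (4.03), P4ha1 (3.20), Bnip3 (3.08) and Fam162a (1.36). Of 19 S phase genes 4 were lower (21.05%), and of 23 G2/M genes 3 were lower (13.04%, near the 14.0% of all genes), Mki67 among them (-0.92). Between BRQ and vehicle edgeR called 0 genes of these 5 lists over the whole class, in which 4, 6, 1, 1 and 1 genes had an unadjusted p under 0.05, and DESeq2 called 1, of the other glycolysis genes. Between BRQ and NTB, Slc2a6 (3.09), Slc2a3 (1.18), Slc16a3 (1.44) and G6pdx (0.76) were higher, as were 5 HIF targets, including Ankrd37 (3.46) and P4ha1 (2.97), where 6.59% of all genes were called. Within cluster 8, whose share differed between the groups, the log2 difference of vehicle against NTB was 0.01 for Slc2a6, -0.36 for Slc2a3, -0.09 for Slc16a3 and -0.03 for Pfkfb4, and within cluster 7 it was 0.43 for Slc2a3, 0.12 for Slc16a3 and 0.56 for Pfkfb4. Cluster 8 also gave 1.68 for Fam162a, 0.58 for Bnip3 and 0.11 for Ankrd37 from 6, 17 and 6 UMIs in the 2 NTB mice, 2 UMIs of Pfkp in NTB and 92 in vehicle mice, and 0 UMIs of P4ha1 among 165531 in NTB mice and 78 among 1465079 in vehicle mice. None of these 9 genes was called within a cluster, with an unadjusted p under 0.05 for Pfkp, Fam162a and P4ha1 in cluster 8 (adjusted p = 0.234, 0.134 and 0.0683).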

How the data were processed

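For each of 3 pools, the authors deposited raw UMI counts of genes and hashtags in every cell barcode, made with Cell Ranger 6.0.0 per the submitters' processing notes from 3' gene expression and feature barcode libraries. Reads were not used here, and 3' counting measures levels of a gene between samples, not between genes.

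Barcodes were kept with 500 to 7500 detected genes and at most 15% mitochondrial UMIs. The limits of 500 and 7500 are worded as transcripts in the study and were read as UMIs in an alternative. Hashtags were called with HTODemux (Seurat 5.3.0, quantile 0.99), and singlets were given to that mouse. Likely doublets (Scrublet in scanpy 1.11.5) were left out in an alternative. The 10 members and 2 wider glycolysis lists (7 variable genes) were left out of the 2000 variable genes, 30 principal components and 20 neighbors behind 20 Leiden clusters (igraph 0.11.9, resolution 0.8), which were named from 12 marker lists. GMPs were cells of any cluster with ln(1 + Ms4a3 UMIs per 10000) over 3. Other classes were the remaining cells of named clusters.

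Counts were summed per mouse and class for mice with at least 20 cells, and tested with edgeR 4.0.16 (TMM, filterByExpr, quasi-likelihood, two-sided, Benjamini-Hochberg over all genes tested), over 9 mice in 1 fit per class. SE is the absolute log2 fold change divided by the root of F. DESeq2 1.42.0 and total UMIs in place of TMM factors were alternatives. Each mouse is taken as a replicate, as labelled by its hashtag and pool. Classes were compared with a two-sided exact paired permutation test of log2(CPM + 1), adjusted over 40 tests. The class by contrast interaction had mouse as a block. Mice of 1 pool share a capture, so the pool was tried as a block. Deviations from group means correlated within a pool with a median r of 0.10 in GMPs (lowest -0.01) and 0.13 in neutrophil-like cells (lowest -0.09), and between pools with -0.04 and -0.08. The code was tested on simulated data.

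The members and lists were chosen with earlier results of these data known. Named beside the members are, per GMP and neutrophil-like comparison, up to 6 called genes of smallest adjusted p per list (other glycolysis genes, regulators and branches, HIF targets outside glycolysis, S phase, G2/M phase), and the 5 genes of most similar pattern. Gene copies that could share reads held few UMIs (Eno1b 632 against 35030 for Eno1, Gapdhs 28 against 142391 for Gapdh). Tables and figures were made in R 4.3.3 and Python 3.11.15 with scipy 1.17.1, matplotlib 3.10.9, pandas 2.3.3 and numpy 2.4.6.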

Additional observations from a re-analysis of the deposited data

Results flagged for a closer look

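The change of 2 members differed between neutrophil-like cells and GMPs in a test of the difference itself. For Slc2a1, the log2 difference of vehicle against NTB was larger in neutrophil-like cells by 2.45 (SE 0.69, adjusted p = 0.0309, edgeR interaction with mouse as a block), 1 of 10 members where 9.45% of genes were called. Neutrophil-like cells of NTB mice held 2.28 to 7.67 CPM and those of vehicle mice 22.1 to 64.5 CPM, whereas GMPs held 1.09 to 6.9 CPM and 5.01 to 5.78 CPM. For Aldoa, the log2 difference of BRQ against NTB was larger by 0.73 (SE 0.20, adjusted p = 0.047, 3.43% of genes called), with 309 to 365 CPM and 444 to 636 CPM in neutrophil-like cells and 349 to 459 CPM and 362 to 409 CPM in GMPs. Both calls were lost without single mice, up to an adjusted p of 0.207 for Slc2a1 and 0.252 for Aldoa, and that of Aldoa also on total UMIs in place of TMM (0.58, adjusted p = 0.0989). The share of cluster 8 in the neutrophil-like class, 4.92% to 7.74% in NTB and 59.3% to 87.8% in vehicle mice, moved with the first difference, and its part was not tested. Within cluster 8 the log2 difference of Slc2a1 was -0.16 (SE 0.41, adjusted p = 0.944, edgeR), with 17 Slc2a1 UMIs in the 2 NTB mice.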

How the results depend on the processing

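Of 2298 log2 differences of single members recomputed under other settings, 2102 kept their side of the threshold, 74 lost a call, 120 gained one and 2 turned. Of 1911 recomputed differences that were not called in the report's fits, 127 had the other sign. The turns were Aldoa in GMP-like cells with low Ms4a3, BRQ against NTB, at 0.18 with the replicate block on total UMIs, and Pgk1 in GMPs, BRQ against vehicle, at 0.29 (adjusted p = 1) with the limits of 500 and 7500 read as UMIs and no minimum of cells. With a minimum of 20 cells that reading could not be fitted for GMPs, because too few vehicle mice were left. Settings on UMI ranges, single clusters and total UMIs were chosen after seeing the data.

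In GMPs, 3 members called for vehicle against NTB became 5 over all cells of GMP-like clusters (21.5% of genes called in place of 11.3%), 2 with equal GMPs per cluster and hashtags by ratio, 1 with GMPs of 8000 to 16000 UMIs and 0 with the limits read as UMIs. The 3 called for BRQ against vehicle became 6 with the replicate block, 0 with the limits read as UMIs, and 1 with equal GMPs per cluster and hashtags by ratio, with the UMI range, in cluster 0 or in cluster 1. The 1 called for BRQ against NTB became 2 with the replicate block, with no filter on low counts, with hashtags called by ratio or with an Ms4a3 limit of 2.5, 4 over all cells of GMP-like clusters, and 0 with the UMI range, with the limits read as UMIs or in clusters 0 and 1. In neutrophil-like cells, 4 members called for vehicle against NTB became 7 with hashtags by ratio, 1 in cluster 7 and 0 in cluster 8. The 0 called for BRQ against vehicle became 1 with no filter. The 0 called for BRQ against NTB became 6 with the replicate block, 4 with DESeq2, 1 with no filter, with hashtags by ratio or in cluster 7, 7 with the limits read as UMIs and 2 without the cluster of lowest UMIs. In GMP-like cells with low Ms4a3, the replicate block gave 5 for 3 (vehicle against NTB) and 3 for 0 (BRQ against vehicle). It gave 1 for 0 in HSC/MPP-like cells and 4 for 2 in monocyte-like cells (both vehicle against NTB). In monocyte-like cells, DESeq2 gave 3 for 2 in vehicle against NTB and 1 for 2 in BRQ against vehicle. Beyond the members named with it in the report, the block changed no call of a member in the 5 classes. On total UMIs in place of TMM, the counts without and with the block were 4 and 5 for 1 in GMPs (BRQ against NTB), and in GMP-like cells with low Ms4a3 4 and 5 for 3 (vehicle against NTB), 1 and 3 for 0 (BRQ against vehicle) and 6 and 8 for 3 (BRQ against NTB). They were 0 and 1 for 0 in HSC/MPP-like cells (vehicle against NTB), 1 and 2 for 2 (BRQ against vehicle) and 2 and 4 for 2 (BRQ against NTB) in monocyte-like cells, and 4 and 7 for 4 (vehicle against NTB) and 3 and 7 for 0 (BRQ against NTB) in neutrophil-like cells. For vehicle against NTB in monocyte-like cells, total UMIs without the block gave 3 for 2, with Gapdh added. The interaction gave 2 for 1 (vehicle against NTB) and 0 for 1 (BRQ against NTB). The cause was not tested.

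Leaving out 1 mouse gave, for vehicle against NTB, BRQ against vehicle and BRQ against NTB, 3 to 3, 1 to 3 and 0 to 1 members in GMPs, 2 to 3, 0 to 1 and 1 to 4 in GMP-like cells with low Ms4a3, and 0 to 0, 0 to 0 and 0 to 1 in HSC/MPP-like cells. It gave 1 to 3, 0 to 2 and 0 to 2 in monocyte-like cells, 0 to 6, 0 to 0 and 0 to 4 in neutrophil-like cells and 0 to 2, 0 to 1 and 0 to 3 in the interaction. Of 40 level tests between classes, 30 passed, and 18 to 31 with 1 mouse left out.

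With 88 to 177 GMPs per NTB mouse and a median of 1662 UMIs in cluster 8, low genes such as Slc2a1 rest on few UMIs. The p-values of edgeR rest on a spread estimated over all mice of a fit, with 2 or 3 mice per group. Those between classes rest on 6 to 9 paired mice.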
